A study of Mus musculus with 21 samples.

Results

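Interleukin-1 (IL-1) family genes were followed across the conventional dendritic cells of mouse thymus and spleen. The 9 genes are 3 agonists or their precursors (Il1a, Il1b and Il18), 2 secreted inhibitors (Il1rn and Il18bp), 3 receptor genes (Il1r1, Il1r2 and Il1rap) and the processing enzyme Casp1. They were taken by gene symbol, as 9 of 37734 genes measured, and they were picked because their levels in these same libraries were known to vary, so their levels are described here without tests. The cells were conventional type 1 and type 2 dendritic cells (cDC1 and cDC2) sorted from C57BL/6 mice aged 6 to 8 weeks, with no transgene or treatment named. Immature cells, negative for the chemokine receptor CCR7 and for the adhesion molecule ESAM, came from spleen and thymus, and mature cells, positive for both, came from thymus only. After CD11c bead enrichment, the cDC1 gate took CD24+ CD11b- cells and left out F4/80, Ly6g, Ly6c, DX5 and B220, whereas the gate given for cDC2 took CD11b+ cells and left out CD24 and B220. In its flow cytometry the study also set cDC2 as F4/80-, which the labels give only for the sorted cDC1. The 6 groups held 4 splenic cDC1, 3 splenic cDC2, 4 thymic immature cDC1, 3 thymic immature cDC2, 3 thymic mature cDC1 and 3 thymic mature cDC2 samples, 20 in all. RNA-seq values are normalized read counts, that is, reads per gene divided by a size factor of the library.

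IL-1α and IL-1β are inflammatory cytokines that both signal through the receptor IL1R1 together with its partner IL1RAP, and then through MYD88, IRAK kinases and TRAF6 to NF-kB and MAP kinases. IL-1β and IL-18 are made as inactive precursors, and caspase-1, once recruited to an inflammasome, cuts them into the active cytokines. Signalling is held back at several levels: the antagonist encoded by Il1rn occupies IL1R1 without activating it, IL1R2 is a decoy that binds IL-1 but lacks the signalling domain, and the binding protein encoded by Il18bp captures IL-18. Myeloid cells, dendritic cells among them, are known producers of these cytokines. Transcript levels do not show whether a precursor was cut or secreted, and in bulk libraries a smaller share of cells carrying a transcript and less transcript in each cell cannot be told apart.

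The libraries held 14266867 to 40119669 reads, and every deposited value came out as a whole number of reads within a tolerance of 0.01. In spleen the sorted subsets showed in the marker genes. Xcr1, the chemokine receptor of cDC1, lay at 8385 to 15629 in splenic cDC1 and 26.1 to 64.1 in splenic cDC2. Sirpa of cDC2 lay at 18967 to 28215 in splenic cDC2 and 749 to 1548 in splenic cDC1. Ccr7 lay at 92666 to 129531 and 91722 to 115572 in the mature cDC1 and cDC2, against at most 5433 in any immature sample. Mature thymic cDC2 were less distinct: the 6 listed cDC1 markers summed to 14300 to 22358 and the 6 cDC2 markers to 14059 to 18149. In immature thymic cDC2 these sums were 3028 to 5156 and 60485 to 62360, and in mature cDC1 40321 to 43806 and 2109 to 3621. All 4 general dendritic cell markers (Flt3, Zbtb46, Itgax and H2-Ab1) were present in every group. A further pair of splenic cDC1 libraries that carried the same pool, index and lane differed by less than any other pair of one group (chi-square per degree of freedom of their counts 2.44, against 20.4 to 176 for all other pairs) and was counted as 1 sample. Thymic immature cDC1 replicates 3 and 4 also carried the same pool, index and lane but differed (92.8) and were kept as 2 samples, and splenic cDC1 replicates 1 and 4 came from 1 pool, so that each group of 4 samples held 3 pools. By the same measure several libraries stood apart: mature cDC2 replicate 3 (125 to 144, against 26.9 between the others), splenic cDC1 replicate 3 (99.97 to 176, against at most 54.4) and splenic cDC2 replicate 2 (106 and 132, against 35.3). So did thymic immature cDC1 replicate 3 (56.1 to 92.8, against at most 37.3) and mature cDC1 replicate 3 (48.1 and 57.1, against 20.4). Per the study, the cells came from pools of mice, and the labels do not name the animals, so the p-values given below for genes other than the 9 measure the spread between these sorted samples.

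Il1b carried the bulk of the agonist transcript and marked cDC2 and immature cells. Values are given in replicate order. In spleen, the 4 cDC1 samples had 9781, 13483, 12166 and 14207 normalized reads and the 3 cDC2 samples 37896, 62793 and 45958. In immature thymic cells, cDC1 had 4963, 6944, 5848 and 6959.6 and cDC2 36746, 37920.4 and 36918. Among these immature cells all cDC2 samples lay above all cDC1 samples within each tissue, by 3.94-fold in spleen and 6.02-fold in thymus (folds are ratios of group means). Mature thymic cDC1 had 511, 541 and 896 and mature thymic cDC2 3383, 5732 and 2654. Both mature groups lay wholly below their immature counterparts, 9.52-fold lower in cDC1 and 9.48-fold lower in cDC2, and the gap between the subsets among mature cells was 6.04-fold. From highest to lowest mean the order was splenic cDC2 at 48883 ± 12704 (SD, n = 3), thymic immature cDC2 at 37195 ± 634 (SD, n = 3), splenic cDC1 at 12409 ± 1945 (SD, n = 4), thymic immature cDC1 at 6179 ± 963 (SD, n = 4), thymic mature cDC2 at 3923 ± 1609 (SD, n = 3) and thymic mature cDC1 at 649 ± 215 (SD, n = 3). Samples of the 2 highest groups overlapped, as did those of thymic immature cDC1 and mature cDC2, and the other neighbours in that order did not.

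**Figure D1:**
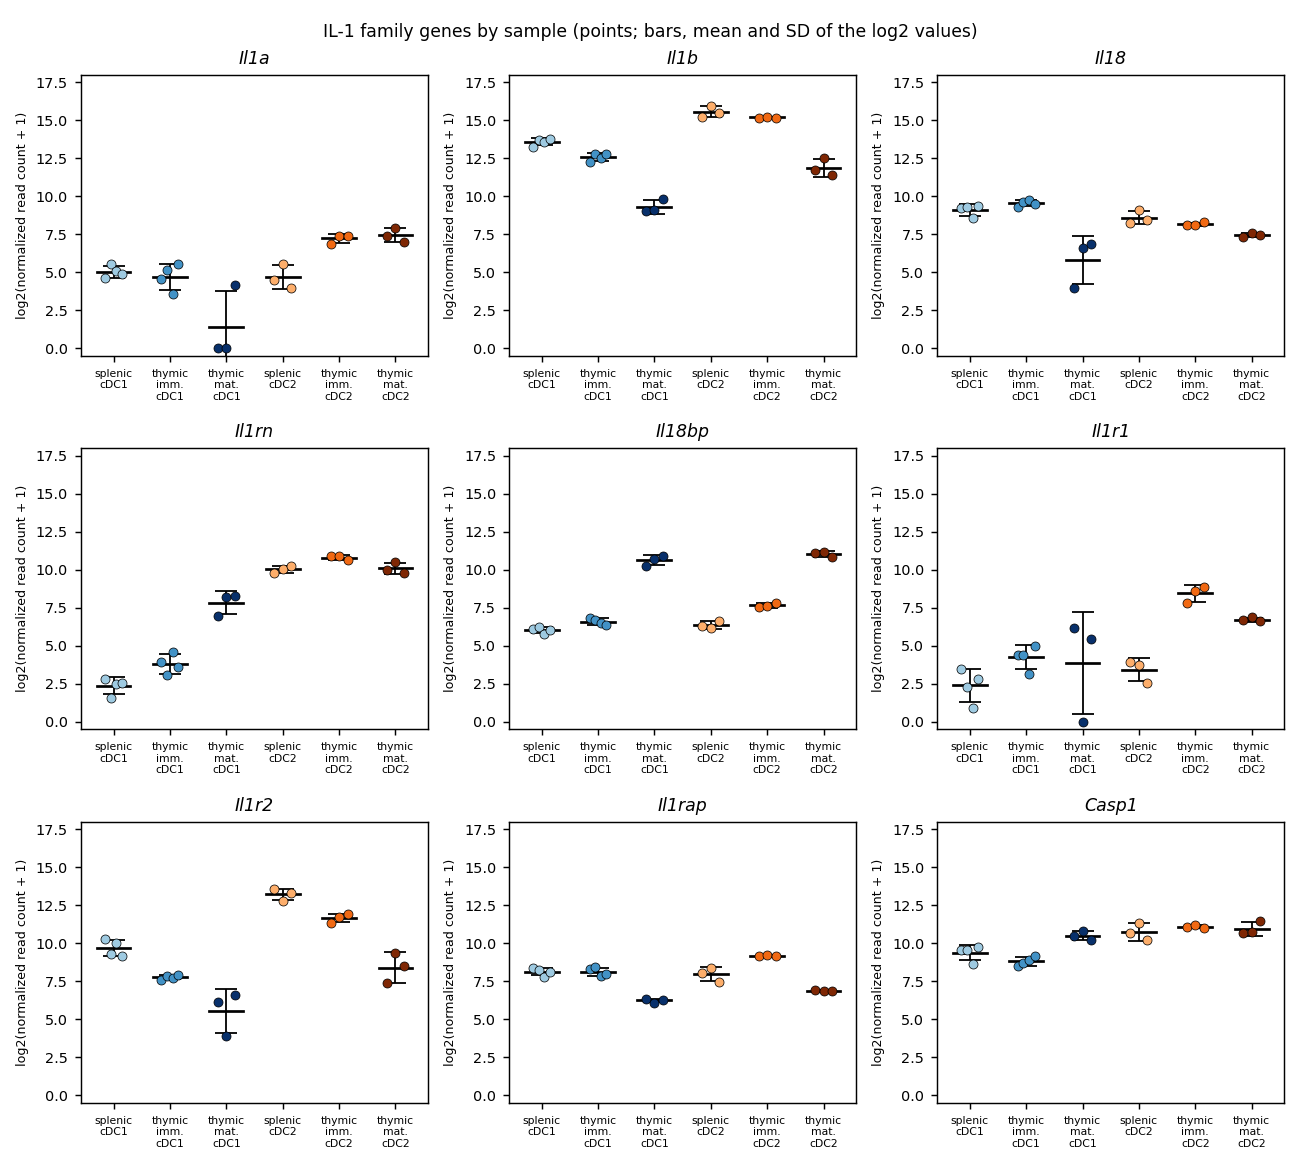
Log2(normalized read count + 1) of the 9 IL-1 family genes on the y axis, by sample (points) in the 6 groups on the x axis, with the mean and SD of the log2 values as black bars. Il1b and Il1r2 are lowest in mature cDC1, Il1rn is near the bottom in immature cDC1 of both tissues, and Il18bp is high in both mature groups.

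Il1a, the other IL-1 receptor agonist, was scarce and followed another pattern than its neighbour. The genes lie 61.2 kilobases apart on chromosome 2, both on the minus strand (mm10 coordinates from the GENCODE M21 annotation, chr2:129299610-129309972 for Il1a with 7 merged exons and chr2:129364570-129371139 for Il1b with 6). Immature thymic cDC2 had 117, 168 and 169.8 normalized reads of Il1a and mature thymic cDC2 169.7, 245 and 128, with overlapping samples, whereas splenic cDC2 had 22, 45 and 14.7. Thymic immature cDC2 thus lay 5.58-fold above splenic cDC2 with no overlap, while Il1b was 1.31-fold lower in the thymic group, with overlapping samples. In cDC1, Il1a was at 23.7, 45.4, 33.2 and 28 in spleen, at 22.8, 34.1, 10.9 and 45.5 in immature thymic cells and at 0, 0 and 16.8 in mature cells. The pair of mature cDC1 libraries at 0 held 14782647 and 15779540 reads, and a count of 0 allows up to 3 reads. Mature cDC1 replicate 3 lay within the range of immature thymic cDC1. Mature cDC2 lay above all mature cDC1 samples, by a log2 difference of 6.07 ± 0.80 (± SE from the fit over all groups), a size that rests on the added pseudocount of 1 because 2 of the 3 mature cDC1 values are 0. Il1a shares 222 exon bases with Gm14023, an antisense transcript that lay between 0 and 26.9 in all groups. Without a stated strand setting in the read counting, reads over these bases may be wrongly added to or lost from the low Il1a values.

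The bases before the transcription starts of Il1a, Il1b and Il1rn are shown because these agonist and antagonist genes had unlike patterns over the groups. They are the 250 bases upstream of the RefSeq start (GRCm38.p6), written 5′ to 3′ on the gene's strand, and capitals mark a match, on either strand, to 1 of 4 short motifs: GGGNN followed directly by TTTCC for NF-kB, TGANTCA for AP-1, GAGGAA for PU.1 and other ETS factors, and TTNCNNNAA, which is named here by its letters only. Il1rn has 3 annotated starts, and the first and second are shown.
Il1a, chr2:129309973-129310222, minus strand: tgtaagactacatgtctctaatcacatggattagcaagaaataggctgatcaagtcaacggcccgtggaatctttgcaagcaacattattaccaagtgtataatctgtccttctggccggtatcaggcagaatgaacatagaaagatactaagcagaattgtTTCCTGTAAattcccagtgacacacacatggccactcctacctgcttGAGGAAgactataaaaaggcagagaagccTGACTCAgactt
Il1b, chr2:129371140-129371389, minus strand: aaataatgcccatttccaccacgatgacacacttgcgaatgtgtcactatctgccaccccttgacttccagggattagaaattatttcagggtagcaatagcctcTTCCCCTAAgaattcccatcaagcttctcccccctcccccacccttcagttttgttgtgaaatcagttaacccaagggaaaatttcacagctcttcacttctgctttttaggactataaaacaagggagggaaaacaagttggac
Il1rn, first start, chr2:24336610-24336859, plus strand: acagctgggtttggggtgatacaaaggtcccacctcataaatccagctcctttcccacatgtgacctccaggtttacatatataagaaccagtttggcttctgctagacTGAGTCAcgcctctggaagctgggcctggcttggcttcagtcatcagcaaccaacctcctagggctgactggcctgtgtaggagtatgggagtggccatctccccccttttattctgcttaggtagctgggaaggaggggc
Il1rn, second start, chr2:24345041-24345290, plus strand: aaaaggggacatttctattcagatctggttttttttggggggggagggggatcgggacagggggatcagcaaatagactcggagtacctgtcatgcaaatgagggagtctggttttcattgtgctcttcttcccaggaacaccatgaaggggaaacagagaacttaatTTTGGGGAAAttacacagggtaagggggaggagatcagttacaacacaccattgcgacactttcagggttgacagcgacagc
In Il1a an AP-1 match began 12 bases before the start, a GAGGAA match 41 bases before it and a TTNCNNNAA match 88 bases before it. Il1b held a single match, to TTNCNNNAA, 145 bases before the start. The first Il1rn start had an AP-1 match 141 bases before it, and the second overlapping TTNCNNNAA matches 82 and 81 bases before it. The last Il1rn start lies 80 bases downstream of the second, and 51 bases before it stands an NF-kB match. It begins 29 bases after the second start, outside the stretch shown for it. The search covered 300 bases around each of 12 starts of the 9 genes, 250 before and 50 after, and found no other NF-kB match.
Il1rn, NF-kB match with 10 bases on either side, chr2:24345310-24345339, plus strand: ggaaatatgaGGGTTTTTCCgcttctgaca
Among 32851 RefSeq windows of 300 bases, 1.63% held the NF-kB motif, 7.81% the AP-1 motif, 28.3% GAGGAA and 36.6% TTNCNNNAA. A match describes letters and was not linked to binding, and the gene-level reads do not tell the 3 starts of Il1rn apart.

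Il18, the other caspase-1 substrate, was more even and leaned toward cDC1 among immature thymic cells. Immature thymic cDC1 had 625, 771, 863 and 707 normalized reads and immature thymic cDC2 278, 275 and 310, a 2.58-fold difference with no overlap and the opposite direction to Il1b. Splenic cDC1 had 596, 625, 371 and 664 and splenic cDC2 305, 544 and 347, which overlapped. Mature cDC1 had 14.7, 95.3 and 116, far below every immature cDC1 sample (9.85-fold), and mature cDC2 162, 193 and 171, below every immature thymic cDC2 sample (1.64-fold). Among mature cells the order of the subsets was thus turned around, with cDC2 2.33-fold above cDC1 and no overlap. The log2 difference of 1.65 ± 0.48 leaned on mature cDC1 replicate 1, with 8 reads, and was 0.73 without it.

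The IL-1 receptor antagonist Il1rn separated the immature subsets more widely than any other of the 9 genes. It stood at 6.18, 1.97, 4.62 and 4.99 normalized reads in splenic cDC1 and at 877, 1069 and 1199 in splenic cDC2, a 236-fold difference that rests on 2 to 13 reads per cDC1 library. In immature thymic cells it stood at 14.4, 7.50, 23.4 and 11.1 in cDC1 and 1877, 1885 and 1565 in cDC2, 126-fold apart. With maturation the subsets drew closer. Mature cDC1 had 125, 302 and 309, 17.4-fold above immature thymic cDC1 with no overlap, while mature cDC2 had 1004, 1458 and 894, 1.59-fold below immature thymic cDC2, also with no overlap. Mature cDC2 remained 4.56-fold above mature cDC1. On the log2 scale the maturation difference was 4.02 ± 0.38 in cDC1 and -0.69 ± 0.41 in cDC2 (± SE), 2 opposite directions whose difference was not tested because the gene was chosen with these values known. Thymic immature cDC1 lay 3.17-fold above splenic cDC1 with no overlap, on at most 17 reads per library in either group.

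The IL-18 binding protein gene Il18bp was the one member that was higher, without overlap, in mature than in immature thymic cells of both subsets. Immature samples held 67.9, 73, 53.6 and 66.1 normalized reads in splenic cDC1, 78.7, 70 and 97.8 in splenic cDC2, 114, 103, 88.9 and 79.8 in thymic cDC1 and 185, 192 and 226 in thymic cDC2. Mature samples held 1237, 1698 and 1923 in cDC1 and 2208, 2325 and 1819 in cDC2. Every mature sample exceeded every immature one, by 16.8-fold in thymic cDC1 and 10.5-fold in thymic cDC2, and the mature subsets overlapped. Among immature cells thymic cDC2 stood above the other 3 groups, 2.45-fold above splenic cDC2 and 2.08-fold above thymic cDC1. The gene (chr7:102014885-102018690, minus strand) shares 80 exon bases with Numa1 on the other strand, which lay between 3847 and 7562 over all samples. Numa1 stood at 3941 to 4476 in immature and 5598 to 6340 in mature thymic cDC2. In immature and mature thymic cDC1 it stood at 3954 to 5323 and 5228 to 5960. The part of Numa1 reads in the Il18bp values was not tested.

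Levels of different genes are compared per kilobase of merged exons, since longer transcripts give more reads. On that scale Il1b exceeded its antagonist Il1rn 4596 to 19839.8-fold in splenic cDC1 samples and 725 to 2689-fold in immature thymic cDC1. These ranges rest on only 2 to 13 and 9 to 17 reads of Il1rn per sample. The excess was 111 to 170.5-fold in splenic cDC2 and 56.8 to 68.4-fold in immature thymic cDC2. In mature cells it shrank to 5.20 to 11.8-fold in cDC1 and 8.62 to 11.4-fold in cDC2. The balance between agonist and antagonist transcript was therefore alike in range in the mature subsets, although both genes were higher in cDC2. With the longest annotated transcript in place of merged exons the mean Il1rn to Il1b ratio was 0.157 instead of 0.102 in mature cDC2 and 0.203 instead of 0.132 in mature cDC1, because merged Il1rn exons span 5535 bases and its longest transcript 2554. In splenic cDC1 the excess of Il1b was then 2982 to 12874.5-fold. Il18bp stood to Il18 at a ratio of 0.0339 to 0.0492 in splenic cDC1, 0.0438 to 0.0960 in splenic cDC2, 0.0351 to 0.0622 in immature thymic cDC1 and 0.227 to 0.248 in immature thymic cDC2. In mature cells the binding protein outweighed the cytokine, at 5.65 to 28.6 in cDC1 and 3.62 to 4.64 in cDC2. The value of 28.6 rests on 8 reads of Il18 in mature cDC1 replicate 1. Of the summed level of the 5 secreted genes per kilobase, Il1b made up 97.6% in splenic cDC2, 96.3% in immature thymic cDC2, 91.7% in splenic cDC1 and 80.7% in immature thymic cDC1. In mature cDC2 it made up 62.7% and Il18bp 22.6%, and in mature cDC1 the order was reversed, with 34.3% for Il1b and 54.5% for Il18bp.

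**Figure D2:**
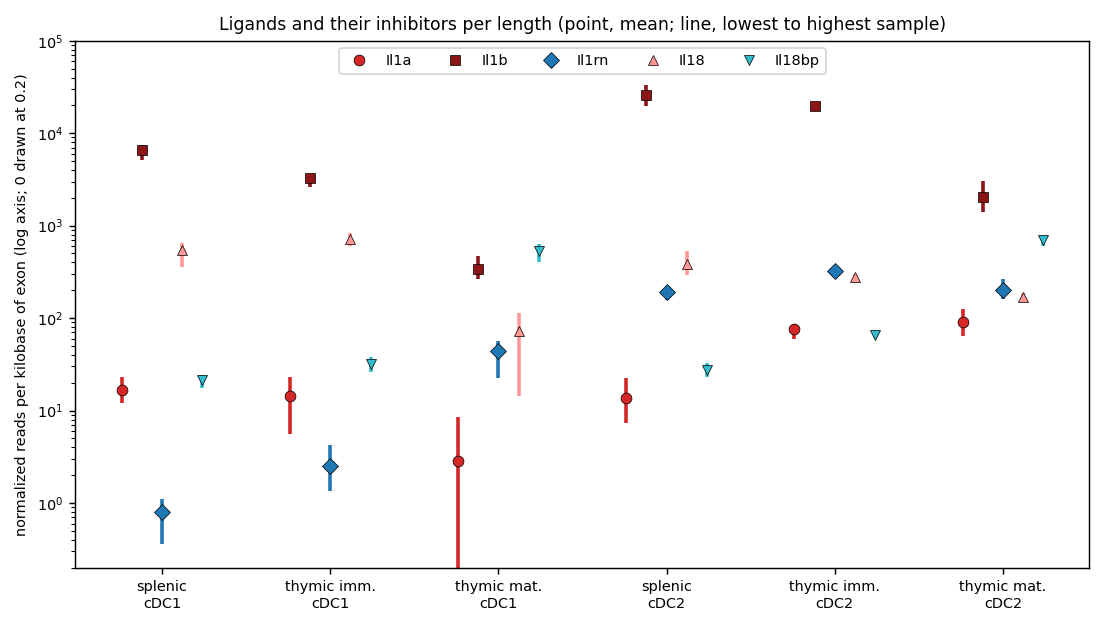
Normalized reads per kilobase of exon (y, log axis) of the 3 agonist genes Il1a, Il1b and Il18 and the inhibitors Il1rn and Il18bp in the 6 groups (x), with the mean as a point and a line from the lowest to the highest sample; a lowest value of 0 is drawn at the lower edge. Il1b is the highest of the 5 in every group except mature cDC1, where Il18bp at 535 exceeds Il1b at 340.4.

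Per kilobase of merged exons, the decoy Il1r2 had the highest mean level of the 3 receptor genes in every group. The signalling receptor Il1r1 had the lowest except in thymic cDC2, where Il1rap was lower. That exception depends on the length used, since merged Il1rap exons span 11360 bases and its longest transcript 4520. With the longest transcripts, Il1rap lay above Il1r1 in thymic cDC2 as well. Splenic cDC2 held 11962, 7188 and 10223 normalized reads of Il1r2 and splenic cDC1 1251, 637, 1034 and 573, 11.2-fold apart. Thymic immature cDC2 held 2589, 3408 and 3808 and thymic immature cDC1 190.1, 235, 212 and 239, 14.9-fold apart. Both thymic groups lay below their splenic counterparts without overlap, by 3-fold in cDC2 and 3.99-fold in cDC1. Mature cDC2 held 164, 651 and 362 and mature cDC1 70, 13.9 and 95.9, each wholly below its immature group, by 8.33-fold and 3.66-fold. The order of the groups was close to that of Il1b: over the 20 samples the log2 values of Il1r2 and Il1b had Pearson r = 0.93, a description across samples that fall into 6 groups.

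Il1r1 reached its highest levels in thymic cDC2. Immature thymic cDC2 had 223, 396 and 470.4 normalized reads and mature thymic cDC2 101, 116 and 97.3, against 14.6, 12.5 and 4.89 in splenic cDC2. Immature thymic cDC2 lay 34-fold above splenic cDC2 and 3.48-fold above mature cDC2, with no overlap in either case. The cDC1 groups were low, at 10.3, 3.94, 0.924 and 6.15 in spleen, 20.3, 20, 7.80 and 31.3 in immature thymic cells and 71.9, 0 and 42.4 in mature cells, where samples ranged from 0 to 53 reads and the mean (higher than in immature cells) and the log2 difference (-0.36 ± 0.99) point in opposite directions. Mature cDC1 replicate 2, without a read, set that: leaving it out gave a log2 difference of 1.57 against immature thymic cDC1, and one of 0.90 instead of 2.84 ± 1.06 between mature cDC2 and mature cDC1. Per kilobase, Il1r2 exceeded Il1r1 1918 to 6974-fold in splenic cDC2, 27 to 38.7-fold in immature thymic cDC2 and 5.42 to 18.8-fold in mature thymic cDC2. The splenic range rests on 3 to 20 reads of Il1r1 per library, and its upper end on the library with 3. In immature thymic cDC1 the excess was 25.5 to 90.7-fold, on a denominator of 5 to 31 reads. The decoy transcript thus outnumbered that of the signalling receptor in every sample with Il1r1 reads.

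The shared co-receptor Il1rap was present in all groups and lower in mature cells. Immature thymic cDC2 had the highest level, 573, 607 and 565 normalized reads, above all 265, 327 and 174 of splenic cDC2 and all 310, 344, 226 and 249.6 of immature thymic cDC1. Splenic cDC1, with 329, 306, 221 and 279, overlapped both splenic cDC2 and immature thymic cDC1. Mature cDC2 had 118, 116 and 118 and mature cDC1 79.3, 67.6 and 77.6. These lay below every immature sample, with differences of 4.97-fold in cDC2 and 3.78-fold in cDC1 against the immature thymic cells.

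Around the 9 genes, 63 others of the pathway were listed: the rest of the ligand and receptor families, inflammasome genes, signalling genes and genes that IL-1 induces. Of these 51 passed the filter on low values and were tested with limma against all 14966 genes tested, on log2(value + 1), which makes the sizes of differences against groups near 0 depend on the added 1. The calls (adjusted p below 0.1 and more than 2-fold) were 31 in mature against immature thymic cDC1 (19 higher and 12 lower), beside 45.7% called of all genes (21.3% higher and 24.5% lower). In mature against immature thymic cDC2 they were 25 (15 higher and 10 lower) beside 35.6% (18.6% and 17.0%). Tissue gave 6 in cDC1 (3 higher and 3 lower in thymus) beside 8.75% (4.26% and 4.49%), and 9 in cDC2 (4 and 5) beside 14.2% (8.30% and 5.87%). Subset gave 21 in spleen (20 higher in cDC2 and 1 lower) beside 16.6% (9.90% and 6.71%). It gave 19 in immature thymic cells (all higher in cDC2) beside 16.4% (11.0% higher and 5.43% lower), and 13 in mature thymic cells (all higher in cDC2) beside 18.9% (14.6% higher and 4.36% lower). In mature cells DESeq2 on recovered reads called 13 higher and 2 lower. In the last comparison the median of all genes was itself 0.14 above 0 on the log2 scale. The interaction gave 12 for maturation (2 more positive and 10 more negative in cDC2) beside 13.6% (8.38% and 5.27%), and 7 for tissue (3 and 4) beside 4.98% (3.25% and 1.72%).

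Il1r2 and Il1r1 head a cluster of 6 receptor genes on chromosome 1 that spans 478 kilobases (Il1r2 at chr1:40074079-40125231 and Il1r1 at chr1:40225080-40317257 in mm10, both on the plus strand). It goes on with Il1rl2, the receptor of the IL-36 cytokines, Il1rl1, which encodes the IL-33 receptor ST2, and Il18r1 and Il18rap, the subunits of the IL-18 receptor. These 4 were not among the 9 genes and were tested with limma over all genes. In immature thymic cDC2 against immature thymic cDC1 all 4 were higher, Il1rl1 at 119.9 to 136 normalized reads against 0 to 3.38 (log2 6.49 ± 0.69, adjusted p = 4.25e-07), Il1rl2 at 905 to 958 against 12.5 to 42.4 (log2 5.43 ± 0.51, adjusted p = 8.22e-08), Il18rap at 96.6 to 165 against 3.12 to 5.83 (log2 4.51 ± 0.56, adjusted p = 3.54e-06) and Il18r1 at 26.8 to 31.2 against 0 to 8.08 (log2 3.61 ± 0.96, adjusted p = 0.00871). In spleen the 4 were higher in cDC2 as well, Il1rl1 at least 20.5-fold against the value of 3 reads per library, since splenic cDC1 had none. Il1rl2 was the one of the 4 called between tissues in cDC2, higher in thymus (log2 3.92 ± 0.55, adjusted p = 2.49e-05), and this tissue difference was larger than in cDC1 (log2 2.90 ± 0.72, adjusted p = 0.0205 for the interaction). Il1rl1 and Il18rap were not called, though their cDC2 samples did not overlap between tissues. In splenic cDC2 Il1rl1 was lower, at 30.6 to 65.2, and Il18rap higher, at 176 to 258, than in immature thymic cDC2. Maturation took Il1rl1 in thymic cDC2 from 129.6 ± 8.43 to 3.21 ± 2.31 (log2 -5.14 ± 0.74, adjusted p = 8.29e-06), a fall that the 0 to 4 reads of immature thymic cDC1 could not have shown, and Il1rl2 from 931 ± 26.3 to 117 ± 40.7 (log2 -3.05 ± 0.55, adjusted p = 1.04e-04). Il18rap fell in the same comparison (log2 -2.04 ± 0.60, adjusted p = 0.00832), while Il18r1 was at 123, 101 and 98.1 in mature and 31, 26.8 and 31.2 in immature thymic cDC2 without passing the test (log2 1.82 ± 1.03, adjusted p = 0.159). The cluster thus held genes at levels from 5132 ± 1266 per kilobase for Il1r2 in splenic cDC2 to 137 ± 3.86 for Il1rl2 in immature thymic cDC2 and 0.466 ± 0.335 for Il1rl1 in mature thymic cDC2 (± SD, n = 3).

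**Figure D3:**
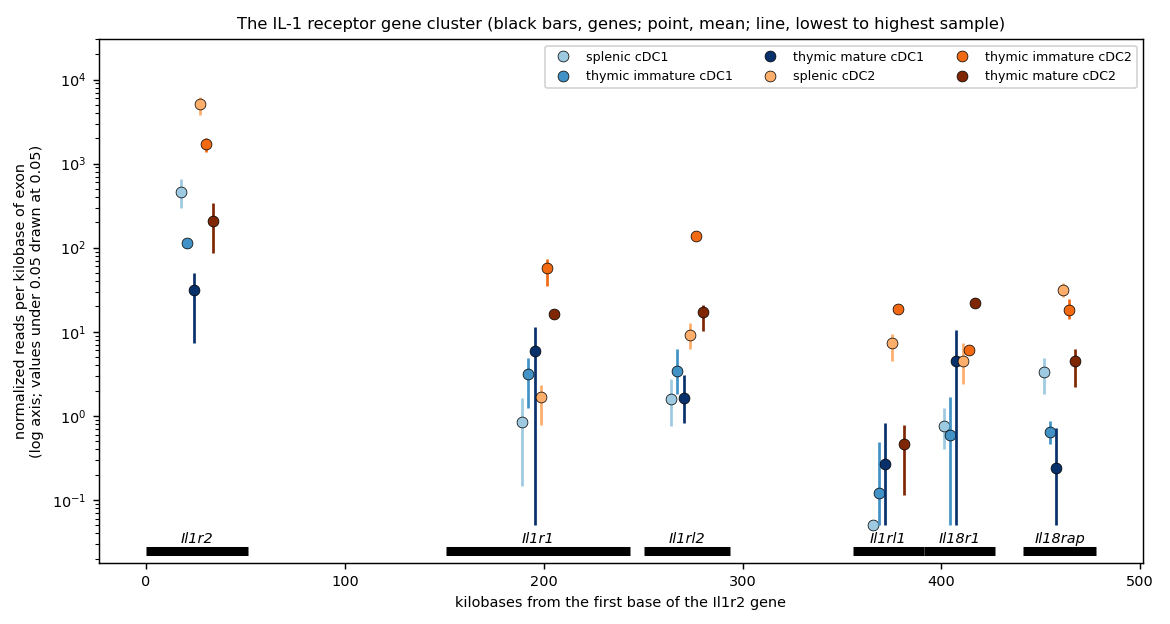
The 6 genes of the receptor cluster at their distance in kilobases from the start of Il1r2 (x, black bars), with normalized reads per kilobase of exon (y, log axis) for the 6 groups, as the mean (point) and the lowest to highest sample (line). Il1r2 peaks in splenic cDC2, Il1r1, Il1rl2 and Il1rl1 in immature thymic cDC2, Il18r1 in mature thymic cDC2 and Il18rap in splenic cDC2.

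Sigirr, an inhibitory receptor of the family on chromosome 7, was present everywhere and rose with maturation in cDC2 from 344 ± 36.4 to 1107 ± 133 (SD, n = 3) (log2 1.68 ± 0.22, adjusted p = 1.92e-06). In cDC1 it was at 400.2 ± 85.7 in immature and 672 ± 69.9 in mature cells, a difference under 2-fold (log2 0.77 ± 0.20, adjusted p = 0.0027). The interaction passed the adjusted p but not the 2-fold limit (log2 0.91 ± 0.29, adjusted p = 0.0456). Il1rapl1 and Il1rapl2, neuronal members of the receptor family, had no read in any library. The other ligand genes of the family were at or near the limit of detection: Il36b had no read, Il1f10 at most 3 reads, Il36a at most 2, Il36g at most 6, Il36rn at most 9 and Il33 at most 12. None of these 6 ligands passed the filter on low values (at least 10 normalized reads in at least 3 samples), and none was tested.

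Casp1, the enzyme that cuts the IL-1β and IL-18 precursors, was high in all cDC2 groups and in mature cDC1. Immature cDC1 held 749, 763, 394 and 853 normalized reads in spleen and 362, 415, 469.7 and 577 in thymus. Immature cDC2 held 1619.8, 2619.7 and 1183 in spleen and 2145, 2409.9 and 2048 in thymus, 2.62-fold and 4.83-fold above cDC1 of the same tissue with no overlap. Mature cDC1 held 1414, 1830.1 and 1183, 3.24-fold above immature thymic cDC1 and again without overlap, while mature cDC2 held 1625, 1702 and 2832 and overlapped immature thymic cDC2. The substrate and its enzyme thus went opposite ways in maturing cDC1: Il1b and Il18 were lower and Casp1 higher in every mature sample.

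Around Casp1, inflammasome genes were called in both directions with maturation. Of 17 listed genes 16 were tested, and in mature against immature thymic cDC1 3 rose and 7 fell (21.3% and 24.5% over all genes), with a median log2 difference of -0.43 against -0.04 over all 14966 genes tested. In cDC2 2 rose and 5 fell (18.6% and 17.0% over all genes), with a median of -0.41 against 0.04. Several sensors fell: Nlrp3, from 1646 ± 256 to 81 ± 22.9 in cDC1 (log2 -4.36 ± 0.25, adjusted p = 1.03e-11) and from 3442 ± 189 to 452 ± 223 in cDC2 (log2 -3.03 ± 0.27, adjusted p = 1.40e-08), and Nlrp1b, log2 -4.34 ± 0.42, adjusted p = 2.08e-08 in cDC1 and log2 -3.54 ± 0.45, adjusted p = 1.66e-06 in cDC2. Nlrp1a fell as well in both, and its reads may be shared with Nlrp1b, a near relative. Casp4 and Gsdmd rose in both subsets: Casp4, which encodes the caspase-11 of the non-canonical inflammasome, from 319 ± 45.6 to 2322 ± 249.6 in cDC1 (log2 2.86 ± 0.26, adjusted p = 8.64e-09) and from 1013 ± 127 to 2401 ± 857 in cDC2 (log2 1.19 ± 0.28, adjusted p = 0.00142), and Gsdmd, the pore former gasdermin D, log2 1.54 ± 0.16, adjusted p = 7.52e-08 in cDC1 and log2 1.02 ± 0.17, adjusted p = 6.26e-05 in cDC2. Ninj1, which drives membrane rupture, rose in cDC1 (log2 1.72 ± 0.35, adjusted p = 2.87e-04) and not in cDC2 (log2 0.11 ± 0.38, adjusted p = 0.838), and that difference between the subsets passed its own test (log2 -1.61 ± 0.52, adjusted p = 0.0452). Pycard, the adaptor ASC, was at 720.4 ± 194 and 408 ± 32.2 in immature and mature cDC1 and did not reach the 2-fold limit (log2 -0.79 ± 0.22, adjusted p = 0.00377).

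Between subsets, 7 of 16 inflammasome genes were called higher in cDC2 in spleen, 8 in immature and 7 in mature thymic cells, and none lower. Over all genes 9.90%, 11.0% and 14.6% were higher in cDC2 and 6.71%, 5.43% and 4.36% lower, so that all genes leaned the same way. Nlrc4, which senses flagellin together with NAIP proteins, stood at 1265 ± 143 in splenic cDC2 and 161 ± 24.7 in splenic cDC1 (log2 2.98 ± 0.23, adjusted p = 4.50e-09). Mefv, which encodes pyrin, stood at 3463 ± 325 in immature thymic cDC2 and 202 ± 38 in immature thymic cDC1 (log2 4.11 ± 0.27, adjusted p = 6.08e-10). In splenic cDC1 Mefv was at 1909 ± 289, so that the tissue difference of cDC1 (log2 -3.25 ± 0.25, adjusted p = 1.56e-08) was not called in cDC2 (log2 -0.34 ± 0.29, adjusted p = 0.462) and the interaction passed (log2 2.90 ± 0.39, adjusted p = 8.66e-05). Nlrp3 was lower in thymic than in splenic cDC2 (log2 -1.63 ± 0.27, adjusted p = 1.66e-04), as were Nlrc4 (log2 -1.36 ± 0.25, adjusted p = 4.66e-04) and Aim2, a DNA sensor (log2 -1.20 ± 0.25, adjusted p = 0.00165).

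Of 20 signalling genes behind the receptors, 6 rose and 3 fell with maturation in cDC1, where 21.3% of all genes were called higher and 24.5% lower. In cDC2 5 rose and 2 fell, beside 18.6% and 17.0%, so that the calls in the list were about as frequent as over all genes. The adaptor Myd88 fell from 2078 ± 242 to 722 ± 236 in cDC1 (log2 -1.57 ± 0.20, adjusted p = 7.67e-07) and from 2096 ± 72.3 to 727 ± 151 in cDC2 (log2 -1.55 ± 0.21, adjusted p = 4.07e-06), and Mapk14, which encodes the kinase p38α, fell as well (log2 -3.87 ± 0.17, adjusted p = 2.12e-13 in cDC1 and log2 -2.88 ± 0.19, adjusted p = 1.53e-10 in cDC2). The ubiquitin ligase gene Traf6 rose in both (log2 2.36 ± 0.13, adjusted p = 6.67e-12 in cDC1 and log2 1.85 ± 0.14, adjusted p = 1.80e-09 in cDC2). Irak3, an inhibitory member of the IRAK family, was low in immature cDC1 and rose there from 11.9 ± 5.41 to 109 ± 13.9 (log2 3.19 ± 0.37, adjusted p = 3.10e-07). In cDC2 it was already at 139.6 ± 38.3 in immature thymic cells and 273 ± 58.8 in spleen, and its rise to 291 ± 23 was smaller (log2 1.09 ± 0.40, adjusted p = 0.0306, and log2 -2.11 ± 0.55, adjusted p = 0.0137 for the interaction). Between subsets only Irak3 and Peli2 were called in each of spleen, immature and mature thymus, 2 of 20 each time, both higher in cDC2, and Peli2 shares 869 exon bases with the pseudogene Gm6498 on the same strand, so that its counts are uncertain. Between tissues 0 of 20 were called in cDC1 and 1 of 20 in cDC2, Mapk14, lower in thymus (log2 -1.32 ± 0.19, adjusted p = 2.80e-05).

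Of 13 genes that IL-1 and other NF-kB inputs are known to induce, 10 were tested, and Ccl20, Csf2 and Lcn2 did not pass the filter. In mature against immature cDC1 all 10 rose, with a median log2 difference of 2.15 against -0.04 over all genes, of which 21.3% were called higher. In cDC2 7 rose and none fell, with a median of 1.35 against 0.04, beside 18.6% called higher. The 3 not called in cDC2 were Cxcl2 (log2 -0.14 ± 0.47, adjusted p = 0.834), Zc3h12a (log2 -0.08 ± 0.31, adjusted p = 0.855) and Nfkbiz (log2 0.43 ± 0.22, adjusted p = 0.122). Cxcl1, a neutrophil-attracting chemokine, went from 2.95 ± 2.37 to 1027 ± 88.5 in cDC1 (log2 8.21 ± 0.65, adjusted p = 1.17e-09) and from 23.1 ± 10 to 1579 ± 303 in cDC2 (log2 6.10 ± 0.70, adjusted p = 4.63e-07). Nfkbia, the NF-kB inhibitor IκBα, rose by log2 2.68 ± 0.22, adjusted p = 1.93e-09 in cDC1 and log2 2.15 ± 0.24, adjusted p = 2.66e-07 in cDC2. Ptgs2, which encodes the prostaglandin synthase COX-2, rose far more in cDC1 (log2 6.03 ± 0.38, adjusted p = 3.17e-11) than in cDC2 (log2 1.26 ± 0.40, adjusted p = 0.0141), with log2 -4.76 ± 0.55, adjusted p = 8.37e-06 for the interaction. It was highest in splenic cDC2, at 17217, 40284 and 22591, and was lower in thymus than in spleen in both subsets (log2 -3.78 ± 0.35, adjusted p = 1.59e-07 in cDC1 and log2 -2.66 ± 0.40, adjusted p = 6.61e-05 in cDC2), in the direction of Il1b and Il1r2. Il6 went the other way between tissues, at 33.5 ± 12.8 in splenic and 262 ± 38.6 in thymic cDC1 (log2 3.01 ± 0.29, adjusted p = 2.34e-07) and at 9.24 ± 2.68 and 487 ± 79.1 in cDC2 (log2 5.60 ± 0.33, adjusted p = 2.44e-10), a larger step in cDC2 (log2 2.58 ± 0.44, adjusted p = 8.91e-04 for the interaction). Between subsets 7 of 10 were higher in cDC2 and 1 lower (Il6) in spleen, 5 of 10 were higher in immature thymic cells, and 1 of 10, Cxcl2, in mature cells (log2 2.29 ± 0.47, adjusted p = 0.0012).

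**Figure D4:**
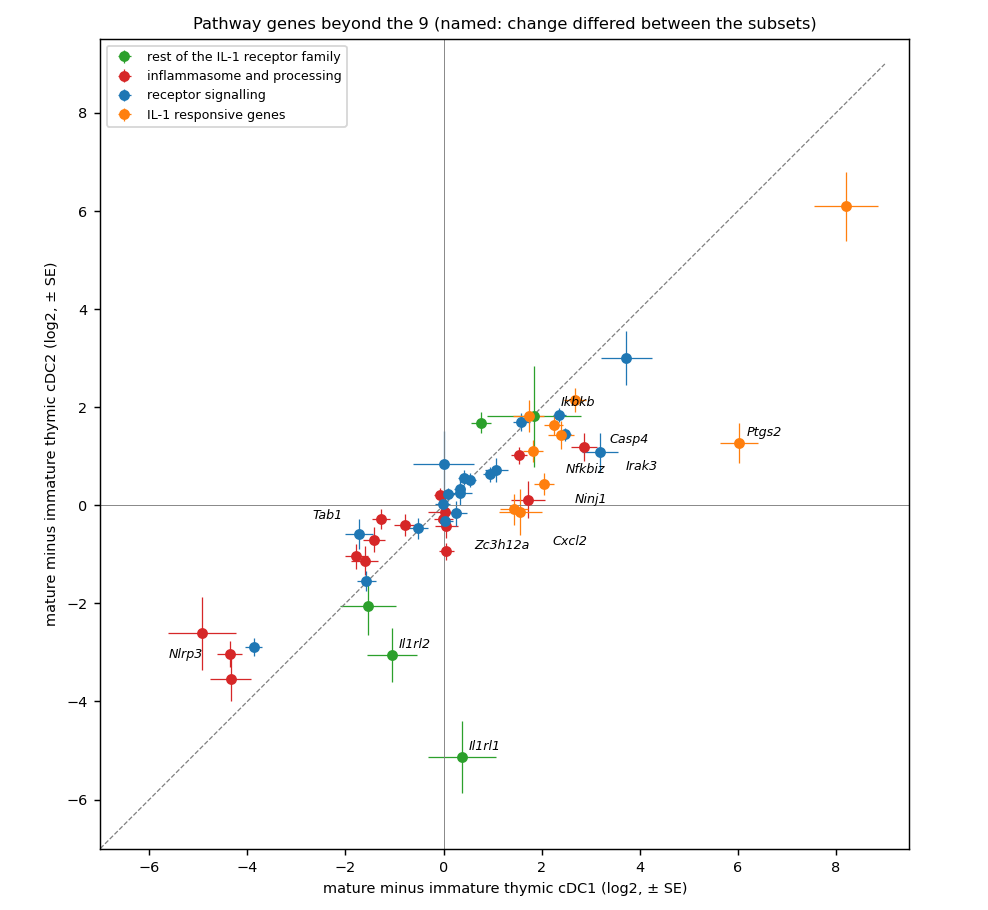
Log2 difference between mature and immature cells, with SE, in thymic cDC1 (x) and thymic cDC2 (y) for the 51 tested genes of the IL-1 pathway other than the 9, coloured by list; the dashed line marks equal change, and the 12 named genes changed differently in the 2 subsets by the interaction test. All 10 responsive genes lie right of 0, with Cxcl2 and Zc3h12a slightly below 0 on the y axis. Nlrp3 lies at the lower left and Ptgs2 changed more in cDC1, while Il1rl1, with at most 7 reads in any thymic cDC1 library, could not fall in cDC1.

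Set side by side by comparison, the 9 genes divide as follows, counting a gene where the samples of the groups did not overlap and the mean log2 values differed by more than 1. Maturation of thymic cDC1 gave 7 of 9, 3 higher (Il1rn, Il18bp and Casp1) and 4 lower (Il1b, Il18, Il1r2 and Il1rap), where 39.8% of all 14966 genes met the same rule (18.7% higher and 21.1% lower). Maturation of thymic cDC2 gave 5 of 9, with Il18bp higher and Il1b, Il1r1, Il1r2 and Il1rap lower, beside 36.7% of all genes (19.4% higher and 17.4% lower). Thymic against splenic cDC1 gave 3 of 9 beside 9.29% (4.42% higher and 4.88% lower), with Il1rn higher and Il1b and Il1r2 lower, and the Il1b difference of -1.01 lay at the edge of the rule, between -0.98 and -0.90 with 1 of splenic replicates 2 and 4 or thymic replicates 1 and 3 left out. Thymic against splenic cDC2 gave 5 of 9 beside 17.1% (9.81% higher and 7.29% lower), with Il1a, Il18bp, Il1r1 and Il1rap higher and Il1r2 lower. The subset comparison in spleen gave 4 of 9 (Il1b, Il1rn, Il1r2 and Casp1) beside 17.3%, of which 10.2% were higher in cDC2 and 7.06% lower. In immature thymic cells it gave 9 of 9 beside 17.3% (11.5% higher and 5.79% lower), and in mature thymic cells 6 of 9 (Il1a, Il1b, Il1rn, Il18, Il1r1 and Il1r2) beside 16.7% (12.5% higher and 4.15% lower). All were higher in cDC2 except Il18 in immature thymic cells. Nothing is read from these shares about the 9 genes as a set, since they were chosen on these values, and comparisons that use the same group, such as the immature thymic cells, share its samples.

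**Figure D5:**
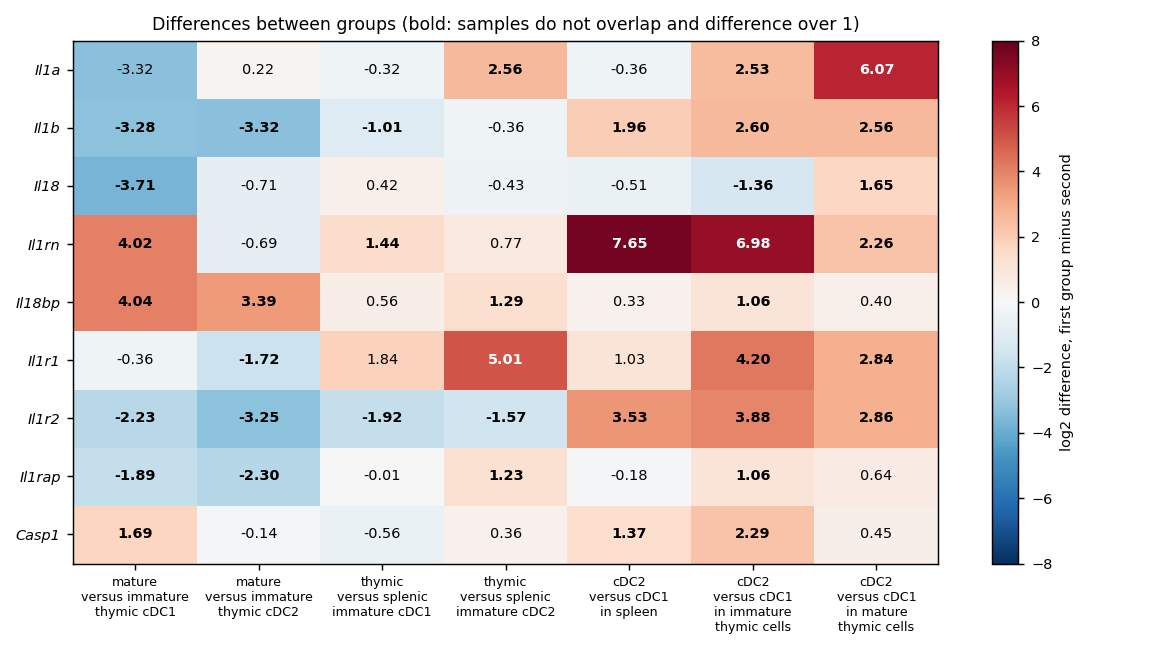
Log2 differences, first group minus second, of the 9 genes (rows) in the 7 comparisons (columns), coloured from blue (lower in the first group) to red (higher); bold numbers mark samples that do not overlap with a difference over 1. The Il1rn differences of 7.65 in spleen and 6.98 in immature thymic cells are the strongest, and the immature thymic column is the one in which all 9 entries are bold.

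Markers of other cells were set beside these differences. The 10 monocyte and macrophage markers summed to 30569 to 42684 normalized reads in splenic cDC2, 47836 to 58290 in immature thymic cDC2 and 8499 to 47410 in mature thymic cDC2, against 374 to 8524 over the cDC1 groups, and all 10 had a mean of at least 10 in each cDC2 group. Several of them, such as Csf1r, Ccr2 and Lyz2, are also expressed by cDC2. Adgre1, which encodes F4/80, was at 4192 to 4923 in splenic, 1777 to 2039 in immature thymic and 516 to 1012 in mature thymic cDC2. C1qa, a complement gene of macrophages, was at 444, 251 and 385 in splenic cDC2, 2797, 1614 and 2456 in immature thymic cDC2 and 4196, 4445 and 532 in mature cDC2, so that mature replicate 3 had the least. That replicate also had the lowest Il1a, Il1b and Il1rn of the 3 and the highest Casp1. The part of such cells in the cDC2 values was not tested. With each library left out in turn the count for maturation of cDC2 stayed at 5 of 9. That count does not bear on such cells, since every cDC2 library held C1qa. Neutrophils, which are rich in Il1b and Il1r2, left few defining transcripts: S100a8 reached at most 24.3, S100a9 at most 18.4, Ly6g and Retnlg had a mean under 10 in every group, and in splenic cDC2, with the highest Il1b, both S100 genes, Ly6g, Retnlg and Elane had no read. Mpo, of neutrophil precursors, was highest there, at 124, 27.5 and 161, and its part was not tested. Of the other listed neutrophil genes, Csf3r and Cxcr2 were present in cDC2, at 1046 to 1608 for Csf3r in splenic and 638 to 873 for Cxcr2 in immature thymic cDC2. T cell transcripts (6 markers) summed to 1170 to 2065 in mature cDC1 and 678 to 1070 in mature cDC2 against at most 254 in immature samples, and their part in the mature values was not tested. The 4 plasmacytoid dendritic cell markers summed to 10532 to 12114 in immature thymic cDC2 against 3267 to 3960 in splenic cDC2. The 5 markers of NK or innate lymphoid cells summed to 481 to 998 in mature and 126 to 191 in immature thymic cDC2. The part of these 2 marker sets in the differences was not tested. The 5 thymic epithelial markers summed to 3487 to 3816 in immature thymic cDC2, where Il1a, Il1r1 and Il1rap stood above splenic cDC2, against 84.7 to 152 in splenic cDC2. Epcam, which some dendritic cells express, made up most of that sum with a mean of 3516 ± 174, while the defining markers Foxn1 and Psmb11 were at 5.35 ± 0.677 and 13 ± 6.90, and their part in those differences was not tested. With maturation Epcam was lower, but Krt5 went from 22.1 ± 3.06 to 98.6 ± 56.7 in cDC1 and from 32.5 ± 12.3 to 175 ± 63 in cDC2. In cDC2 Krt8 went from 42.1 ± 8.28 to 180.3 ± 67.1 and Psmb11 from 13 ± 6.90 to 108 ± 4.37, and the part of such transcripts in the maturation differences was not tested.

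Libraries were run in lanes 5 and 8, with both mature groups in lane 8 only. The 39 differences counted above could be taken within a lane 60 times, and all 60 kept their sign. They had to, because the samples of the compared groups do not overlap, so the signs do not bear on a lane effect. The size shifted in places, as for Il1r1 in thymic against splenic cDC2, with 5.01 over all libraries, 3.95 within lane 5 and 6.20 within lane 8.

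Genes whose pattern came closest to a member were ranked by Pearson r of log2 values over the 20 samples, among 11274 genes, as a description. For Il1b they were Cd300a (r = 0.980), an inhibitory receptor of myeloid cells, Bex6 (0.979) and Zcwpw1 (0.970). For Il1r2 they were Itgb3 (0.983), which encodes integrin β3, Fosl2 (0.968), an AP-1 factor, and Tnfsf14 (0.965), the cytokine LIGHT. For Il1rn they were 1810033B17Rik (0.979), the cytokine gene Osm (0.968) and the protease gene Ctss (0.963), and for Il18bp Dscaml1 (0.992), Swap70 (0.987) and Catsperg1 (0.987). Il18 was nearest to Tram2 (0.964), Ctse (0.954) and Arhgef39 (0.950), and Il1rap to Pgm2l1 (0.968), Gsg2 (0.962) and Nptn (0.961). The lower genes had looser neighbours, Mcoln2 (0.896), Zfp931 (0.890) and Gm5141 (0.882) for Il1a and Car5b (0.920), the TGF-β receptor gene Tgfbr1 (0.895) and Mtss1 (0.877) for Il1r1, as did Casp1, with Evi5 (0.909), Zfp719 (0.903) and Klf9 (0.899). Among the 9 themselves, the highest correlations were 0.93 between Il1b and Il1r2, 0.86 between Il1rn and Casp1 and 0.82 between Il1b and Il1rap, and the lowest -0.76 between Il18 and Il18bp. The samples share 6 groups, so these values largely restate the group means.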

How the data were processed

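Conventional dendritic cells of mouse spleen and thymus were profiled by stranded mRNA sequencing in 21 libraries. Per the labels and the study's methods, the authors used Cutadapt for trimming, STAR 2.6 for alignment (mm10) and HTSeq-count for the counts of each Ensembl gene, and divided these by a DESeq2 1.24.0 size factor. The deposited signal values are these normalized read counts. The strand setting of the counting is not given in the sources used here. Size factors assume that most genes do not change, which sets the zero of every difference. In all libraries 100% of the values were whole multiples of 1 read within 0.01, so reads were recovered (14266867 to 40119669 per library), and counts of 0 or a few reads limit the lowest levels by counting error alone.

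Groups came from the sample labels. The 9 genes and the pathway lists were chosen with earlier results of these data known, and the 9 were therefore described without p-values, by samples, means ± SD, overlap and log2 differences with the SE of the fit. All 9 passed the filter on low values. Other pathway genes were tested with limma 3.58.1 in R 4.3.3 on log2(value + 1), with 6 group means, a trended prior and Benjamini-Hochberg adjustment over the 14966 genes that reached 10 in 3 or more of the 20 samples. A gene was called at an adjusted p below 0.1 and a change over 2-fold. Differences between subsets in maturation or tissue effect were tested as interactions. The pathway genes named were chiefly the 3 largest rises and falls of each list, with others added after their values were seen. The code was tested on simulated data. Alternatives were edgeR 4.0.16 and DESeq2 1.42.0 on recovered reads, TMM scaling, pseudocounts of 0.1 and 8, no filter, lane as a covariate, lane 8 alone, other handling of repeated pools, and each sample left out. Positions came from GENCODE M21, which held 37607 of 37734 gene identifiers, and upstream sequences from RefSeq (GRCm38.p6).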

Additional observations from a re-analysis of the deposited data

Results flagged for a closer look

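A single sample far from the others of its group was looked for with Dixon's test in 85 combinations of gene and group of 4 samples, where chance gives about 1 in 20. In splenic cDC1 it found Il33 at 0.986 normalized reads and Ninj1 at 301. In thymic immature cDC1 it found Il33 at 1.67, Il36g at 0.845, Il36rn at 5.05, Il1rl1 at 3.38, Mefv at 145 and Zc3h12a at 665. The far values of the Il33, Il36g, Il36rn and Il1rl1 genes rest on 1 to 5 reads.

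The change with maturation differed between the subsets (cDC2 minus cDC1, log2, by the interaction test in limma) for 12 pathway genes. It was more negative in cDC2 for Il1rl1 (-5.51), Ptgs2 (-4.76), Irak3 (-2.11), Il1rl2 (-1.99), Cxcl2 (-1.71), Casp4 (-1.67), Nfkbiz (-1.62), Ninj1 (-1.61), Zc3h12a (-1.52) and Ikbkb (-1.03), and more positive for Nlrp3 (1.32) and Tab1 (1.13). The Il1rl1 value is set by the floor, since thymic cDC1 had at most 7 reads of it and could not fall. The difference between thymus and spleen was more positive in cDC2 for Il1rl2 (2.90), Mefv (2.90) and Il6 (2.58), and more negative for Tnip1 (-1.50), Nfkbia (-1.205), Mapk14 (-1.04) and Tnf (-1.02).

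Il1rn went in opposite directions with maturation, 4.02 in cDC1 and -0.69 in cDC2 on the log2 scale, with every sample on its side, and the difference was not tested.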

How the results depend on the processing

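No member difference that was counted changed direction under the alternatives run. Leaving out samples, lane 8 alone and other pseudocounts could not reverse one, because the samples of the compared groups do not overlap. Il1r1 in mature against immature thymic cDC1, which was not counted, went from -0.36 to 1.57 without mature cDC1 replicate 2. Without the 2-fold threshold the called pathway genes became 12 for thymic against splenic cDC1, 21 for thymic against splenic cDC2 and 27 for cDC2 against cDC1 in mature cells (20 higher and 7 lower). With 1 sample left out at a time, called pathway genes ranged from 29 to 31 and 23 to 25 for maturation of cDC1 and cDC2, 5 to 7 and 9 to 11 for tissue in cDC1 and cDC2, 19 to 20, 17 to 20 and 13 to 16 for subset in spleen, immature and mature thymus, and 9 to 15 and 5 to 9 for the interactions of maturation and tissue. Counts of the 9 genes ranged over 7 to 8, 5 to 5, 2 to 4, 4 to 5, 4 to 5, 8 to 9 and 5 to 6 in the same order of comparisons. On recovered reads edgeR called 30 and DESeq2 30 pathway genes for maturation of cDC1 (6730 and 6780 of all genes). Of the differences of single members under other settings 362 stayed within their spread and 16 moved, among them Il1rn in thymic against splenic cDC1 at 0.79 with a pseudocount of 8. With the longest transcript 14 ratios moved and 13 did not. Whether pool numbers shared by cDC1 and cDC2 pair the samples was not settled by the check used. Same-pool correlations were -0.05, 0.34 and 0.46 in spleen and -0.12, 0.21 and 0.12 in immature thymus. Those between different pools ran from -0.50 to 0.35 in spleen and from -0.38 to 0.29 in immature thymus, so the ranges overlapped. With the pool as a replicate block 21 pathway genes were called in spleen and 19 in immature thymic cells, the counts without it. The other comparisons shared fewer than 2 pool numbers. Genes under about 10 reads are limited by depth.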
